A study of Homo sapiens with 24 samples.

Results

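The integrated stress response genes examined here are 10 genes of the ATF4 pathway, ATF4, DDIT3, TRIB3, ASNS, CHAC1, SESN2, PSAT1, PHGDH, ATF5 and DDIT4, taken by symbol from the 60605 genes of a PRO-seq count table. PRO-seq reads mark RNA polymerases that are engaged on a gene when the cells are collected. The cells were T47D, a luminal breast cancer line, in which the transcription factor TRPS1 carries a degradation tag that the small molecule dTAG-13 targets for removal of the protein. Clones 28, 35 and 39 were each exposed for 90 minutes to DMSO (0.1% v/v) or to 100 nM dTAG-13, in 4 replicates per group, which gave 24 libraries in 6 groups. A replicate number stands for a collection: all 4 fell on 1 day, apart in time, and the DMSO and dTAG-13 cells of a clone shared each harvest. The clock times were not given in the sources used here.

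All 6 groups carry the tag. Each clone is 1 isolate that makes no untagged TRPS1 and has lost function of part of its TRPS1 alleles. The 3 clones descend from an earlier puromycin-selected clone that showed no tag insertion in TRPS1, and were then selected with hygromycin. Library totals ranged from 3226718 to 9575803 counts (median 5042122), and both ends of this range were in replicate 3. The luminal markers were transcribed in every library, with medians of 1598 CPM (counts scaled to library size) for ESR1, 1588 for PGR, 802 for GATA3, 149 for FOXA1, 137 for KRT8, 112 for KRT18 and 318 for KRT19. TRPS1 itself lay between 5183 and 9296 CPM with a median of 7397, which does not report on the protein, and protein depletion was not measured in these libraries. It was higher with dTAG-13 in each pair and lower in replicates 3 and 4 than in 1 and 2 in each group, as in Clone 28 with 7335, 7195, 5272 and 5183 CPM with DMSO and 8250, 7865, 6656 and 6304 CPM with dTAG-13 in replicates 1 to 4. The basal keratins were at or near 0, with medians of 0 CPM for KRT5, 0.141 for KRT14 and 0.156 for KRT17, whereas TP63 had 14.1 and VIM 1.36. Medians of the other cell type markers were 2.62 CPM for PTPRC, 0.724 for CD3E, 15.4 for CD68, 12.5 for COL1A1, 0.227 for COL1A2, 0.828 for PDGFRB, 1.51 for PECAM1 and 0.589 for CDH5.

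In the integrated stress response, kinases that sense amino acid shortage, misfolded proteins, viral RNA or heme deficiency phosphorylate the translation initiation factor eIF2. General translation falls, while translation of the ATF4 mRNA increases, and ATF4 protein then binds with other bZIP factors to sites in genes for amino acid supply, redox balance and cell fate. In cancer cells the pathway is known for supporting growth when amino acids are limiting. ATF4 control is largely translational, so transcription of the ATF4 gene is not a measure of ATF4 protein.

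The transcription factors of the set were the most densely transcribed for their length, together with DDIT4. Per kilobase of annotated gene, the median level over 24 libraries was 25.4 CPM for ATF4, 12.5 for DDIT4, an inhibitor of mTORC1 signalling, 6.86 for DDIT3, the bZIP factor also known as CHOP, and 5.77 for ATF5, a bZIP factor whose mRNA is also under translational control. TRIB3, a pseudokinase that binds ATF4 and AKT, had 1.65 CPM per kb, close to CHAC1, an enzyme that degrades glutathione, with 1.53, and SESN2, a leucine-binding inhibitor of mTORC1, with 1.28. The ranges of these 3 genes overlapped, at 1.36 to 2.13 for TRIB3, 0.943 to 2.92 for CHAC1 and 0.747 to 1.57 CPM per kb for SESN2. Over these annotated lengths the amino acid synthesis genes were lowest, with 0.695 CPM per kb for ASNS, asparagine synthetase, 0.395 for PHGDH, the entry enzyme of serine synthesis, and 0.0198 for PSAT1, the transaminase that follows it. The lengths are GENCODE spans, and those of TRIB3 and PHGDH begin well upstream of the RefSeq starts. The places of TRIB3 and PHGDH in this order therefore depend on the annotation used. ATF4, DDIT4, DDIT3 and ATF5 span 2118 to 5234 bp, and CHAC1, which ranks lower, 3551 bp. ASNS, PSAT1 and PHGDH span 20866 to 95808 bp. The part of gene length in this order was not tested. PSAT1 had only 0 to 11 reads per library, below the filter on low counts, and 9 of the 10 genes were tested. Read counts per library ran from 240 to 673 for ATF4, the highest, and from 15 to 59 for CHAC1, the lowest of the tested genes, where counting error alone gives a coefficient of variation of about 19.2%.

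Neighbouring and overlapping genes bear on some of these counts. On hg38, ASNS (ENSG00000070669, chr7:97851677-97872542, minus strand) lies almost wholly inside the longer non-coding gene ENSG00000284707 on the same strand, which had a mean of 70.6 CPM, and reads of the pair in the shared stretch cannot be told apart. DDIT3 (ENSG00000175197, chr12:57516588-57521737, minus strand) overlaps ENSG00000285133 on the same strand, at a mean of 17.9 CPM. MARS1 and MBD6 overlap DDIT3, and NUP62 and IL4I1 overlap ATF5, on the opposite strand. The counting kept strands apart, since 192 genes lying inside a host on the same strand had a median of 0.912 times the read density of the host, against 0.0235 times for 431 genes on the opposite strand. TRIB3 (ENSG00000101255, chr20:362835-397559, plus strand) begins in GENCODE well upstream of its RefSeq start at 381295. PHGDH (ENSG00000092621, chr1:119648411-119744218, plus strand) likewise begins well upstream of its RefSeq start at 119711934. Annotated pseudogene copies of ATF4 and ASNS held few reads next to their parents except ASNSP1, with 949 reads in all against 1732 for ASNS.

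Matches to TGATGNAA, the core of the composite site bound by ATF4 with C/EBP factors, were read on both strands of hg38 within 1000 bases of the RefSeq starts. They occurred near 8 of the 10 genes, all but ATF4 and ATF5. Of 35116 single RefSeq starts 22.8% had a match, a share not in the same unit, since each of the 10 genes has 1 to 3 starts. The windows given are those within 500 bases before a start, in 5 genes, because they let the letters around the matches be compared between genes. Capitals mark the match, each line is written 5' to 3' on the strand on which the match reads, and the sequence is hg38 placed by RefSeq starts.
DDIT3: cggggaTGATGCAAtgtttg
TRIB3: tccgggTGATGCAAaccgga
ASNS: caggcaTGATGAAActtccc
CHAC1: caggagTGATGCAAcggcag
SESN2: gttgcgTGATGAAAagggac
The TRIB3 window occurs 3 times without a change, at chr20:380886-380905, chr20:380919-380938 and chr20:380952-380971 (minus strand), 403, 370 and 337 bases before the start at 381295. The DDIT3 window is at chr12:57520807-57520826 (plus strand), 306 bases before a start, in an intron by GENCODE and also inside MBD6. The ASNS window is at chr7:97872463-97872482 (minus strand), 311 bases before a start, and the CHAC1 window at chr15:40953256-40953275 (minus strand), 209 bases before its start. The TRIB3, ASNS and CHAC1 windows lie in untranslated exons of longer GENCODE transcripts of the same genes. The SESN2 window is at chr1:28259216-28259235 (minus strand), 296 bases before its start, and lies outside annotated genes. In shorter promoter windows of 300 bases that run past the start and so end short of the SESN2 match, TGATGNAA was found in ASNS, 68 bases before its other start at 97872408, and in CHAC1, and in 3.62% of the 35116 single starts. The letters AGATAA and TGATAA, forms of the GATA motif that TRPS1 recognizes, were found in none of the 10 genes, and in 10.3% and 7.53% of the single starts. A match is a description of letters, and binding was not measured in these libraries.

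Treatment with dTAG-13 addressed whether transcription of these genes changed within 90 minutes of the signal for TRPS1 removal. TRIB3 was the member called. In Clone 28, TRIB3 measured 56.7, 53.6, 69.3 and 57.7 CPM with DMSO and 74.0, 66.4, 69.3 and 70.4 CPM with dTAG-13. In Clone 35, TRIB3 measured 55.5, 55.8, 59.6 and 56.1 CPM with DMSO and 64.2, 57.1, 63.7 and 64.4 CPM with dTAG-13. In Clone 39, TRIB3 measured 51.1, 47.4, 54.0 and 54.7 CPM with DMSO and 61.5, 60.5, 55.6 and 55.8 CPM with dTAG-13. These values are in the order of replicates 1 to 4, as are all such values that follow. In 12 of 12 pairs collected together the dTAG-13 library exceeded its DMSO partner, though by almost nothing in replicate 3 of Clone 28. The DMSO and dTAG-13 ranges overlapped in Clones 28 and 35 and not in Clone 39, and overlap was not counted over all genes. The means with SD (n = 4) were 59.3 ± 6.86 and 70.0 ± 3.17 CPM in Clone 28, 56.8 ± 1.88 and 62.4 ± 3.50 CPM in Clone 35, and 51.8 ± 3.34 and 58.4 ± 3.09 CPM in Clone 39. With the 3 clones together the increase was 0.18 on the log2 scale (SE 0.04), or 1.13-fold, and was called by the edgeR quasi-likelihood test with a Benjamini-Hochberg adjusted p of 0.0399 and a threshold of 0.1. It was 1 of 9 tested members called, against 0.551% of all 22326 genes tested (123 genes, 80 higher and 43 lower). With a term for each of the 12 pairs, TRIB3 rose by the same 0.18 (edgeR quasi-likelihood test, Benjamini-Hochberg adjusted p = 0.00282) and remained 1 of 9 members called, against 2.33% of all genes and 1.40% higher (521 genes, 313 higher). Leaving a clone aside ended the call, with 0.15 without Clone 28, 0.21 without Clone 35 and 0.19 without Clone 39 (edgeR quasi-likelihood tests, Benjamini-Hochberg adjusted p = 0.915, 0.273 and 0.207), and 1, 37 and 37 genes were called. Without a single library TRIB3 kept its call each time (0.16 to 0.21), while the genes called fell to 78, 66, 75, 67, 77 and 80 without Clone 28 DMSO replicates 3 and 4, Clone 28 dTAG-13 replicates 1 and 2, Clone 35 dTAG-13 replicate 3 and Clone 39 DMSO replicate 3. These p-values measure the spread between these samples, whose replicates come from 1 day.

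**Figure D1:**
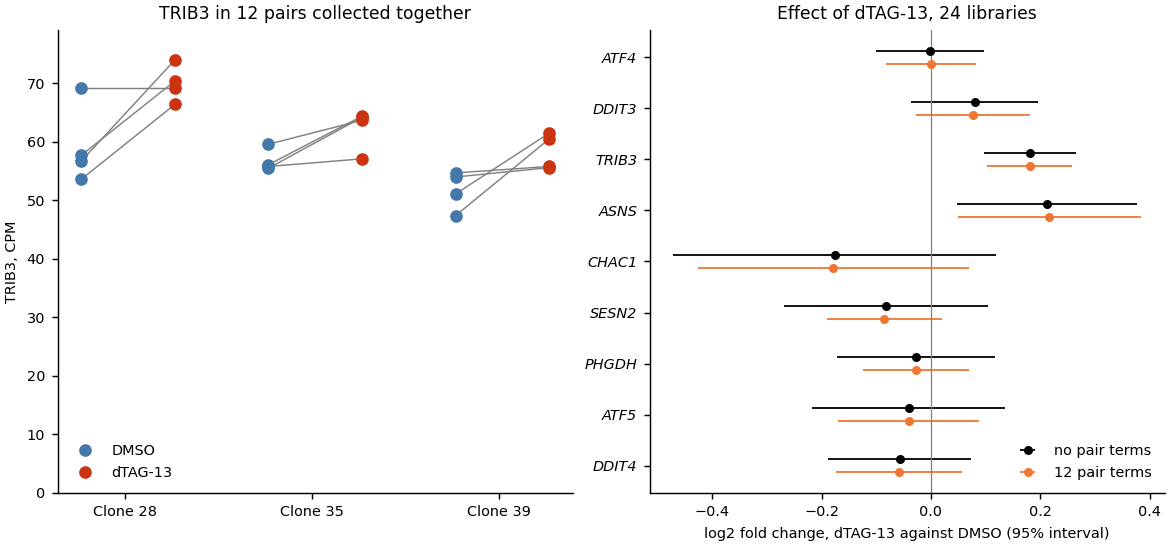
Left, TRIB3 in CPM in each of the 12 DMSO and dTAG-13 pairs, with a line joining the libraries of a pair. Right, log2 fold change of dTAG-13 against DMSO for 9 genes as points with 95% confidence intervals, without pair terms (black) and with 12 pair terms (orange). The TRIB3 and ASNS intervals lie above 0 in both fits, and ASNS was called in neither.

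The other 8 tested members were not called over the 24 libraries. ASNS had the largest difference, 0.21 (95% confidence interval 0.05 to 0.38), higher in 8 of 12 pairs, with adjusted p-values of 0.528 without and 0.276 with pairs (edgeR quasi-likelihood tests, Benjamini-Hochberg). The intervals were -0.10 to 0.10 for ATF4, -0.04 to 0.20 for DDIT3, -0.22 to 0.14 for ATF5, -0.47 to 0.12 for CHAC1, -0.27 to 0.10 for SESN2, -0.19 to 0.07 for DDIT4 and -0.17 to 0.12 for PHGDH. The median over the members was -0.03, beside -0.0018 over all genes. NRSN2, the gene 3175 bp upstream of TRIB3 on the same strand, had -0.04 and was not called.

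Among related pathway genes, SLC7A11, the cystine transporter subunit, rose by 0.49 (SE 0.12) and TXNRD1, thioredoxin reductase, by 0.18 (SE 0.04), with edgeR quasi-likelihood, Benjamini-Hochberg adjusted p-values of 0.0761 and 0.0659. They were 1 of 10 amino acid transporters and 1 of 10 NRF2 targets, beside 0.551% of all genes called. No gene was called among 17 for the eIF2 kinases and machinery, 9 bZIP partners of ATF4, 12 for amino acid and one-carbon metabolism, 13 aminoacyl-tRNA synthetases and export genes, 8 synthetases not usually counted as ATF4 targets, 12 other ATF4 targets, 20 of the IRE1 and ATF6 arms, 10 p53 targets and 5 glucocorticoid targets. With pairs in the model, SLC7A5 (-0.10), KDM7A (-0.18), ZBTB16 (-0.20) and FKBP5 (-0.09) were called lower and STC2 (0.11) and SEL1L (0.13) higher as well, in a fit that called 2.33% of all genes. The list medians without pairs ran from -0.11 for glucocorticoid targets to 0.02 for the eIF2 machinery.

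Whether the response differed between clones was tested by itself. TRIB3 showed 0.24 in Clone 28, 0.14 in Clone 35 and 0.17 in Clone 39, called in no clone by itself. With pairs in the model it was called in Clone 28 (0.24, SE 0.07, higher in each of its 4 pairs, edgeR quasi-likelihood, Benjamini-Hochberg adjusted p = 0.0799), where 263 of 22326 genes were called, and not in Clones 35 (0.13) or 39 (0.17). No gene of 22326 was called for a difference between clones by the edgeR quasi-likelihood test (0%; 407 at an unadjusted p under 0.05), and 1 was called with pairs in the model (1017 at an unadjusted p under 0.05), with 0 of 9 members in both. The widest range among members was that of CHAC1, 0.89 between an estimate of 0.29 in Clone 28 and -0.61 in Clone 35, at 15 to 59 reads per library and an adjusted p of 1.00 by the same test with Benjamini-Hochberg adjustment. In Clone 35, CHAC1 had 5.96, 6.77, 5.88 and 8.16 CPM with DMSO and 5.42, 3.35, 3.56 and 5.45 CPM with dTAG-13, so that the groups did not overlap there. Such separation was not counted over all genes.

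To compare collections, the DMSO and dTAG-13 counts of each clone and number were summed, so that the 3 clones were the replicates of a number. Of the 9 members, 5 were called over the 4 numbers (ATF4, CHAC1, SESN2, PHGDH and ATF5), against 36.9% of all genes (8232 of 22326). In the contrast of replicates 3 and 4 against 1 and 2 the same 5 members were called and all were higher, against 40.2% of all genes called and 20.6% called higher (4608 higher and 4372 lower). The median over the members was 0.11 on the log2 scale, beside 0.00080 over all genes. This split of the numbers was known from earlier results of these data, and members and lists were chosen knowing it. The contrast is therefore no independent finding. The contrasts within each side set 3 sums against 3, where the contrast above sets 6 against 6, so their counts are not on a par with it. Replicate 2 against 1 gave 1 called member, SESN2, against 7.09% of all genes, and replicate 4 against 3 gave 0 members, against 0.466% (104 genes; 1814 at an unadjusted p under 0.05 by the edgeR quasi-likelihood test, ATF5 among them).

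**Figure D2:**
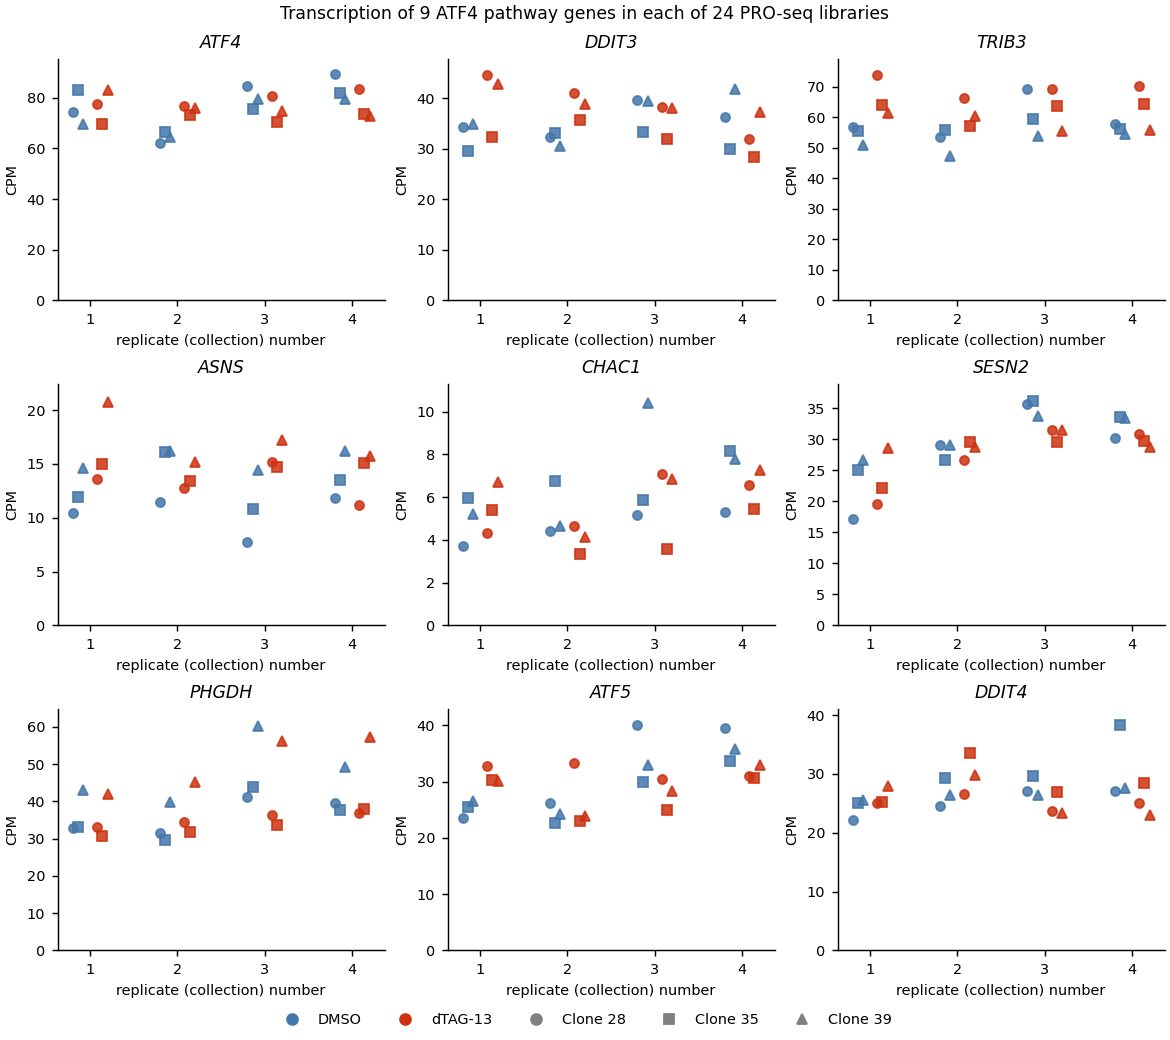
CPM of 9 genes in each of 24 libraries, by replicate (collection) number on the horizontal axis, with DMSO in blue, dTAG-13 in red and clones as marker shapes; the vertical axes start at 0. PHGDH and SESN2 sit higher in replicates 3 and 4 than in replicate 1 in both treatments, and ATF5 does so among the DMSO libraries.

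PHGDH showed the separation in every group. In Clone 28, PHGDH measured 32.8, 31.6, 41.3 and 39.5 CPM with DMSO and 33.0, 34.5, 36.4 and 36.9 CPM with dTAG-13. In Clone 35, PHGDH measured 33.1, 29.6, 43.9 and 37.6 CPM with DMSO and 30.7, 31.8, 33.7 and 38.0 CPM with dTAG-13. In Clone 39, PHGDH measured 43.1, 39.9, 60.2 and 49.3 CPM with DMSO and 42.1, 45.3, 56.2 and 57.3 CPM with dTAG-13. In each of the 6 groups both libraries of replicates 3 and 4 were above both libraries of replicates 1 and 2, by 0.12 to 0.39 between mean log2 CPM. How many of all genes separate in this way was not counted. The contrast itself called 40.2% of all genes, and 20.6% higher. The increase was 0.30 (SE 0.05), or 1.23-fold, with an adjusted p of 1.42e-06 (edgeR quasi-likelihood test, Benjamini-Hochberg).

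SESN2 was lowest in replicate 1. In Clone 28, SESN2 measured 17.2, 29.1, 35.7 and 30.2 CPM with DMSO and 19.6, 26.7, 31.5 and 30.9 CPM with dTAG-13. In Clone 35, SESN2 measured 25.0, 26.6, 36.1 and 33.6 CPM with DMSO and 22.1, 29.5, 29.5 and 29.7 CPM with dTAG-13. In Clone 39, SESN2 measured 26.7, 29.1, 33.8 and 33.4 CPM with DMSO and 28.6, 28.8, 31.5 and 28.8 CPM with dTAG-13. Replicates 3 and 4 were higher on average in 6 of 6 groups, and in 5 of 6 groups without overlap, a separation not counted over all genes. In Clone 35 with dTAG-13 that margin was almost nothing, at 29.5 CPM in both replicates 2 and 3, and in Clone 39 with dTAG-13 the sides overlapped, at 28.8 CPM in both replicates 2 and 4. The contrast was 0.32 (SE 0.06), or 1.25-fold, and replicate 2 exceeded replicate 1 by 0.28 (SE 0.09), with edgeR quasi-likelihood, Benjamini-Hochberg adjusted p-values of 1.88e-05 and 0.0453.

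The remaining called members were ATF5 with 0.26 (SE 0.05), CHAC1 with 0.37 (SE 0.13) and ATF4 with 0.11 (SE 0.03), with edgeR quasi-likelihood, Benjamini-Hochberg adjusted p-values of 0.000187, 0.0187 and 0.00872. Mean log2 CPM was higher in replicates 3 and 4 in 6 of 6 groups for CHAC1 and in 5 of 6 for ATF5 and ATF4. The 4 members not called had intervals of -0.12 to 0.08 for DDIT3, -0.02 to 0.13 for TRIB3, -0.20 to 0.09 for ASNS and -0.08 to 0.14 for DDIT4. The CHAC1 and ATF4 calls depended on the method and on single clones. DESeq2 called 3 of the 9 members and 4776 genes, with differences of 0.39 for CHAC1 and 0.11 for ATF4 and Benjamini-Hochberg adjusted p-values of 0.135 and 0.141. Without Clone 28 the edgeR quasi-likelihood test gave CHAC1 0.32 and ATF4 0.06 (Benjamini-Hochberg adjusted p = 0.159 and 0.295), and without Clone 39 it gave CHAC1 0.25 (adjusted p = 0.223). Over the 4 numbers, CHAC1 (range 0.50, adjusted p = 0.0793 by edgeR quasi-likelihood, Benjamini-Hochberg) was no longer called, with ranges of 0.39 to 0.54, without 1 of 8 pairs, Clone 28 replicates 1, 2, 3 and 4, Clone 35 replicate 4 and Clone 39 replicates 1, 2 and 4, with adjusted p-values up to 0.242, and ATF4 without Clone 28 replicate 2 (range 0.17 against 0.20 with all pairs, adjusted p = 0.119). DDIT4 was called over the 4 numbers without Clone 39 replicate 1 or replicate 4 (ranges 0.26 and 0.25, edgeR quasi-likelihood, Benjamini-Hochberg adjusted p = 0.0759 and 0.0812). With DESeq2, 3350 genes and 3 members were called over the 4 numbers.

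Other features moved with the collection number. Medians of the contrast were 0.058 for genes under 5 kb, 0.066 for 5 to 25 kb, -0.0027 for 25 to 100 kb and -0.11 for genes over 100 kb, and the members are from 2118 bp (DDIT4) to 95808 bp (PHGDH) long. Mitochondrial reads were 1.55% to 2.09% of the total in replicate 1, 1.54% to 2.59% in replicate 2, 1.28% to 2.30% in replicate 3 and 1.04% to 1.60% in replicate 4. Among neighbours, NUP62 on the strand opposite ATF5 rose by 0.23 and NRSN2 upstream of TRIB3 by 0.14, while MIEF1, 1563 bp upstream of ATF4, had 0.08 and was not called. TRPS1 transcription, given above, was lower in replicates 3 and 4. The part of gene length, mitochondrial share, TRPS1 or neighbouring transcription in the members' differences was not tested.

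Genes that work alongside these members moved in both directions between collections, in a contrast that called 40.2% of all genes and 20.6% higher. With 5 to 20 genes in a list, the counts describe these genes and were not tested against that share. All 7 called genes of 12 for amino acid and one-carbon metabolism were higher (median 0.17), with CBS at 0.55, MTHFD2 at 0.29, SHMT2 at 0.29 and PSPH, the enzyme that completes serine synthesis, at 0.19. All 5 called of 9 bZIP partners were also higher (median 0.11), among them CEBPD at 0.58, ATF3 at 0.33, CEBPB at 0.20 and JUN at 0.13. Amino acid transporters had 5 higher and 2 lower of 10 (median 0.14), with SLC7A5 at 0.30, SLC1A4 at 0.25, SLC3A2 at 0.15 and SLC38A1 at -0.15. The eIF2 kinases and machinery had 3 higher and 5 lower of 17 (median 0.0042), with PPP1R15A, the stress-induced eIF2 phosphatase subunit, at 0.29, EIF2B5 at 0.12, EIF2S1 at -0.13 and EIF2AK4, the amino acid sensing kinase GCN2, at -0.13.

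Aminoacyl-tRNA synthetases and export genes had 4 higher and 4 lower of 13 (median 0.0051), with AARS1 at 0.23, CARS1 at 0.19, YARS1 at 0.13 and IARS1 at -0.13. Of 8 synthetases not usually counted as ATF4 targets, 3 were lower and 0 higher (median -0.010), among them FARSB at -0.16 and RARS1 at -0.11. Other ATF4 targets had 4 higher and 3 lower of 12 tested (median 0.05), with LONP1 at 0.22, VEGFA at 0.19, STC2 at -0.20 and KDM7A at -0.29. In the IRE1 and ATF6 arms of the unfolded protein response, 9 of 20 were lower and 3 higher (median -0.08), with SEL1L at -0.22, XBP1 at -0.20, ATF6 at -0.17 and ERN1, the kinase IRE1, at 0.23. NRF2 targets had 4 higher and 3 lower of 10 (median 0.011), with PGD at 0.20, TALDO1 at 0.19, TXNRD1 at -0.10 and GCLC at -0.11. Of 10 p53 targets, CDKN1A was higher (0.23) and MDM2 lower (-0.06; median 0.04), and of 5 glucocorticoid targets, PER1 (0.28) and FKBP5 (0.07) were higher (median 0.07).

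The contrast was also taken in each treatment separately, where the counts of calls are not a test of the difference between treatments. In the 12 DMSO libraries, 8 of 9 members, all but ASNS, were higher in replicates 3 and 4, against 34.0% of all genes called and 16.9% called higher. The log2 differences were 0.50 for ATF5, 0.43 for CHAC1, 0.41 for SESN2, 0.37 for PHGDH, 0.22 for ATF4, 0.20 for DDIT4, 0.16 for DDIT3 and 0.13 for TRIB3, and -0.14 (95% confidence interval -0.36 to 0.09) for ASNS. In the 12 dTAG-13 libraries, 3 members were called, against 22.9% of all genes called and 12.1% called higher. SESN2 (0.24) and PHGDH (0.23) were higher there and DDIT3 (-0.19) was lower. CHAC1 was not called at 0.34 (95% confidence interval -0.0067 to 0.68), and the other differences were 0.0039 for ATF4 (-0.09 to 0.09), 0.03 for ATF5 (-0.12 to 0.18), -0.0079 for TRIB3 (-0.10 to 0.09), -0.01 for ASNS (-0.22 to 0.19) and -0.14 for DDIT4 (-0.29 to 0.0053).

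**Figure D3:**
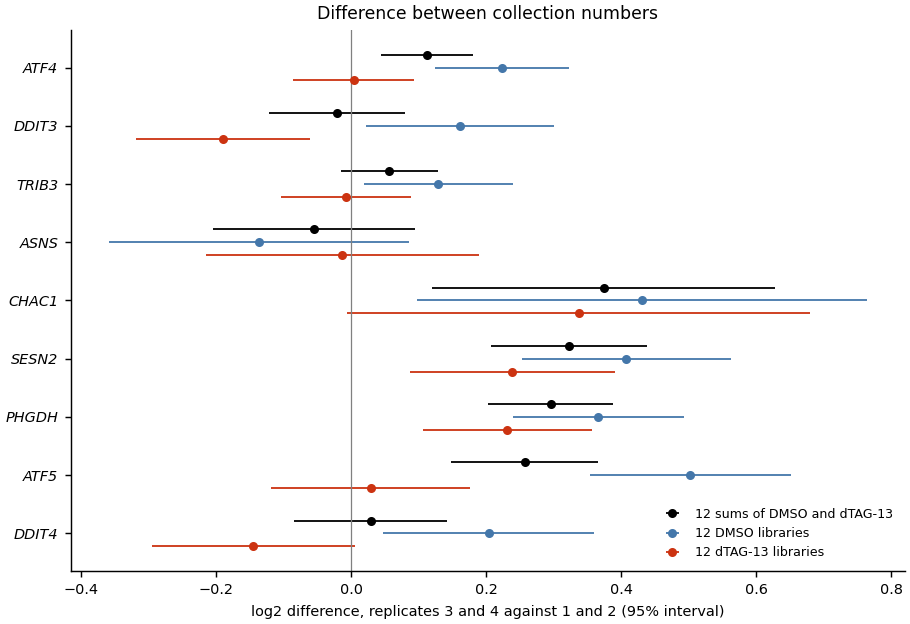
Log2 difference of replicates 3 and 4 against 1 and 2 for 9 genes, as points with 95% confidence intervals, for the 12 sums of both treatments (black), the 12 DMSO libraries (blue) and the 12 dTAG-13 libraries (red). The DMSO intervals lie above 0 for 8 genes, all but ASNS, and the DDIT3 interval from the dTAG-13 libraries lies below 0.

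The effect of dTAG-13 itself was compared between collection numbers, in a model with a term for each of the 12 pairs. ATF5 and ATF4 were called, 2 of 9 members, against 2.09% of all genes (467 of 22326). In Clone 28, ATF5 measured 23.6, 26.2, 40.0 and 39.5 CPM with DMSO and 32.7, 33.3, 30.4 and 30.9 CPM with dTAG-13. In Clone 35, ATF5 measured 25.5, 22.7, 30.0 and 33.6 CPM with DMSO and 30.3, 23.0, 24.9 and 30.7 CPM with dTAG-13. In Clone 39, ATF5 measured 26.5, 24.2, 33.0 and 35.8 CPM with DMSO and 30.1, 23.9, 28.4 and 32.9 CPM with dTAG-13. With dTAG-13, ATF5 was above DMSO in 5 of 6 pairs of replicates 1 and 2 and below it in 6 of 6 pairs of replicates 3 and 4. Its DMSO libraries were low in replicates 1 and 2 and high in replicates 3 and 4 without overlap in all 3 clones, a separation not counted over all genes. The dTAG-13 libraries ran from 30.4 to 33.3 CPM in Clone 28, 23.0 to 30.7 in Clone 35 and 23.9 to 32.9 in Clone 39. With dTAG-13 the sides overlapped in Clones 35 and 39, and in Clone 28 replicates 3 and 4 were the lower. The effect on ATF5 was 0.30, 0.14, -0.30 and -0.20 in replicates 1 to 4 (SE 0.10 to 0.11), with an adjusted p of 0.0320 for the difference between numbers (edgeR quasi-likelihood test, Benjamini-Hochberg).

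In Clone 28, ATF4 measured 74.3, 62.2, 84.6 and 89.4 CPM with DMSO and 77.4, 76.6, 80.9 and 83.4 CPM with dTAG-13. In Clone 35, ATF4 measured 83.0, 66.5, 75.7 and 82.0 CPM with DMSO and 69.8, 73.2, 70.4 and 73.8 CPM with dTAG-13. In Clone 39, ATF4 measured 69.8, 64.6, 79.6 and 79.7 CPM with DMSO and 83.2, 76.0, 74.9 and 73.0 CPM with dTAG-13. ATF4 with dTAG-13 was above DMSO in 5 of 6 pairs of replicates 1 and 2, the exception being Clone 35 replicate 1, and below it in 6 of 6 pairs of replicates 3 and 4. The effects were 0.016, 0.22, -0.09 and -0.13, with an adjusted p of 0.0772 (edgeR quasi-likelihood test, Benjamini-Hochberg). Without pair terms ATF4 was not called, at a range of 0.35 in both fits (edgeR quasi-likelihood test, Benjamini-Hochberg adjusted p = 0.131). That fit called 365 genes. The ATF4 call was also lost without any of 7 pairs, Clone 28 replicates 2 and 3, Clone 35 replicates 2, 3 and 4 and Clone 39 replicates 2 and 4, with ranges of 0.31 to 0.40 and adjusted p-values of 0.110 to 0.332 by edgeR quasi-likelihood and Benjamini-Hochberg. ATF5 was no longer called without Clone 28 replicate 1 (range 0.52) or Clone 28 replicate 3 (range 0.55), against 0.60 with all pairs, at edgeR quasi-likelihood, Benjamini-Hochberg adjusted p-values of 0.157 and 0.112, and 272 genes were called without Clone 35 replicate 3. DDIT3 was called without Clone 35 replicate 2 (range 0.48, edgeR quasi-likelihood, Benjamini-Hochberg adjusted p = 0.060).

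Within single numbers, TRIB3 and ASNS were called although their effects were not called as different between numbers. The TRIB3 effects were 0.29, 0.22, 0.05 and 0.18 in replicates 1 to 4, called in replicate 1 (SE 0.07, 3 of 3 pairs higher, edgeR quasi-likelihood, Benjamini-Hochberg adjusted p = 0.0558), where 177 of 22326 genes were called. The ASNS effects were 0.41, -0.08, 0.54 and 0.02, called in replicate 3 (SE 0.15, 3 of 3 pairs higher, edgeR quasi-likelihood, Benjamini-Hochberg adjusted p = 0.0437), where 559 of 22326 genes were called. For the difference between numbers the ranges were 0.24 for TRIB3 and 0.62 for ASNS (edgeR quasi-likelihood, Benjamini-Hochberg adjusted p = 0.571 and 0.239).

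**Figure D4:**
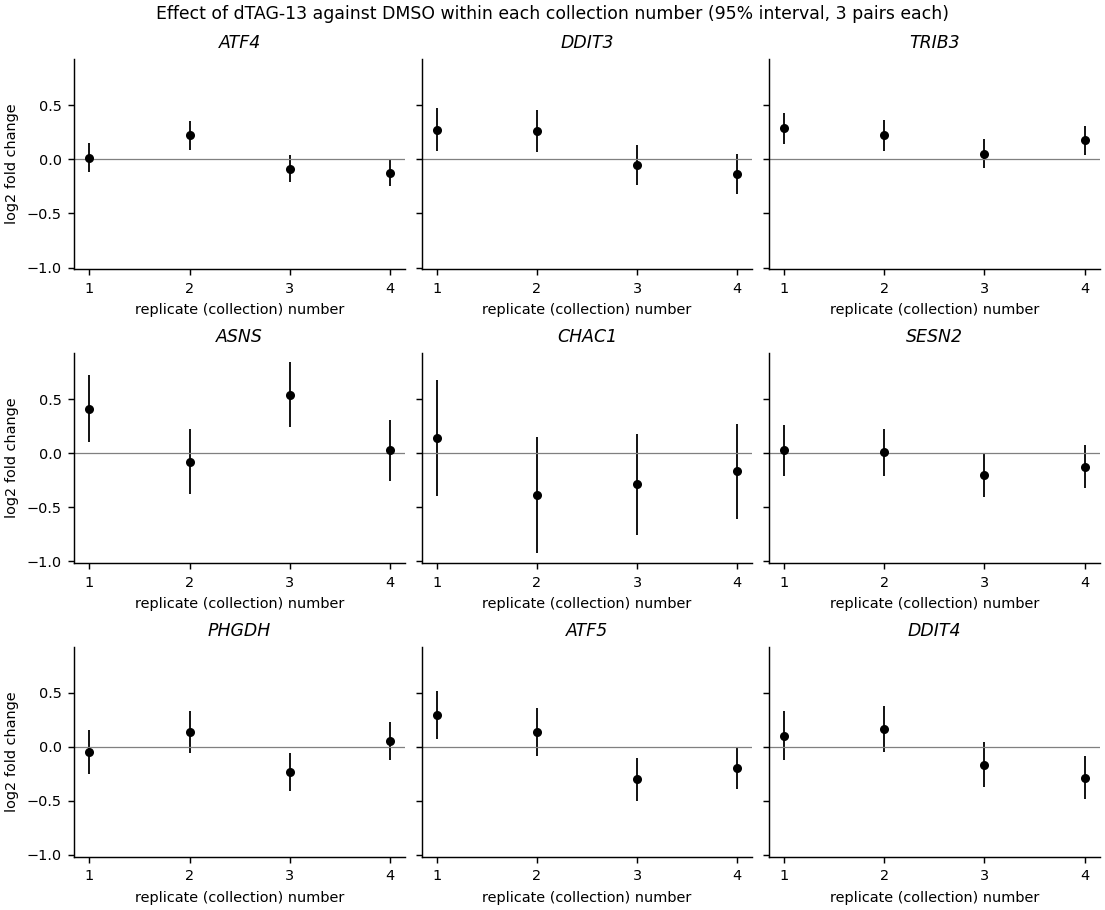
Log2 fold change of dTAG-13 against DMSO within each replicate (collection) number for 9 genes, as points with 95% confidence intervals, each from 3 pairs. ATF5 goes from 0.30 and 0.14 in replicates 1 and 2 to -0.30 and -0.20 in replicates 3 and 4, and DDIT3 and DDIT4 show estimates above 0 in replicates 1 and 2 and below 0 in replicates 3 and 4.

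The single contrast of the effect in replicates 3 and 4 against that in 1 and 2 was chosen after seeing the data. It called 4 of 9 members, all lower, against 5.08% of all genes (1135 of 22326, of which 647 lower), with a median of -0.18 over the members and 0.012 over all genes. The differences were -0.47 for ATF5, -0.36 for DDIT3, -0.36 for DDIT4 and -0.23 for ATF4, with edgeR quasi-likelihood, Benjamini-Hochberg adjusted p-values of 0.00396, 0.0196, 0.0424 and 0.0332. It uses the same libraries as the contrasts between collections within each treatment and is not a separate source of evidence.

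DDIT3, which promotes cell death under prolonged stress, had pair differences of opposite sign between the sides in every clone. In the test over the 4 numbers DDIT3 and DDIT4 were not called (edgeR quasi-likelihood, Benjamini-Hochberg adjusted p = 0.137 and 0.203). The DDIT3 effects were -0.05 (95% confidence interval -0.24 to 0.13) in replicate 3 and -0.14 (-0.32 to 0.05) in replicate 4. In Clone 28, DDIT3 measured 34.3, 32.3, 39.6 and 36.3 CPM with DMSO and 44.7, 41.0, 38.4 and 32.0 CPM with dTAG-13. In Clone 35, DDIT3 measured 29.6, 33.2, 33.3 and 30.0 CPM with DMSO and 32.4, 35.8, 31.9 and 28.4 CPM with dTAG-13. In Clone 39, DDIT3 measured 34.9, 30.6, 39.5 and 41.8 CPM with DMSO and 42.8, 38.9, 38.1 and 37.3 CPM with dTAG-13. In 6 of 6 pairs of replicates 1 and 2 DDIT3 was higher with dTAG-13, and in 6 of 6 pairs of replicates 3 and 4 it was lower. ENSG00000285133, which overlaps DDIT3 on the same strand, had -0.26 in the single contrast (SE 0.13) and was not called (edgeR quasi-likelihood, Benjamini-Hochberg adjusted p = 0.306), and the 2 cannot be told apart where they overlap. DDIT4 had the same directions as DDIT3, 6 of 6 and 6 of 6. In Clone 28, DDIT4 measured 22.1, 24.5, 27.1 and 27.1 CPM with DMSO and 25.1, 26.6, 23.7 and 25.1 CPM with dTAG-13. In Clone 35, DDIT4 measured 25.0, 29.3, 29.7 and 38.3 CPM with DMSO and 25.3, 33.5, 26.9 and 28.4 CPM with dTAG-13. In Clone 39, DDIT4 measured 25.5, 26.5, 26.4 and 27.6 CPM with DMSO and 27.9, 29.9, 23.4 and 23.0 CPM with dTAG-13. The largest DDIT4 pair difference was in Clone 35 replicate 4, where DMSO stood at 38.3 and dTAG-13 at 28.4 CPM. TRIB3 exceeded its DMSO partner in 6 of 6 pairs on each side, with -0.14 (95% confidence interval -0.28 to 0.00066) for the difference. The intervals of the same difference were -0.18 to 0.41 for ASNS, -0.60 to 0.39 for CHAC1, -0.39 to 0.03 for SESN2 and -0.32 to 0.05 for PHGDH.

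In the related lists this contrast, which called 5.08% of all genes, called 1 lower of 17 for the eIF2 machinery (median 0.02), 2 lower of 9 bZIP partners (median -0.14), 1 higher and 1 lower of 10 transporters (median -0.04), 1 higher of 12 for amino acid and one-carbon metabolism (median 0.02), and 0 of 13 and 0 of 8 synthetases (medians 0.03 and -0.02). Of 12 other ATF4 targets 1 was higher and 1 lower (median -0.05), as in the 20 genes of the IRE1 and ATF6 arms (median 0.02), and 1 gene was lower in each of the NRF2 (median -0.02), p53 (median -0.05) and glucocorticoid (median -0.09) lists.

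The clones were compared on the same 12 sums. PHGDH stood out in Clone 39, with a mean of 49.2 ± 7.80 CPM (SD, n = 8 libraries) against 35.7 ± 3.41 in Clone 28 and 34.8 ± 4.76 in Clone 35. In the library values of PHGDH given above, Clone 39 was above the same replicate and treatment of both other clones in every case, while its lowest libraries overlapped the highest of Clones 28 and 35. The log2 differences were 0.46 (SE 0.11) from Clone 28 and 0.52 (SE 0.11) from Clone 35, with edgeR quasi-likelihood, Benjamini-Hochberg adjusted p-values of 0.00375 and 0.00163, and Clone 35 against 28 was -0.05 (95% confidence interval -0.28 to 0.17).

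ASNS was also highest in Clone 39. In Clone 28, ASNS measured 10.4, 11.5, 7.75 and 11.8 CPM with DMSO and 13.6, 12.8, 15.2 and 11.2 CPM with dTAG-13. In Clone 35, ASNS measured 11.9, 16.1, 10.8 and 13.5 CPM with DMSO and 15.0, 13.4, 14.7 and 15.1 CPM with dTAG-13. In Clone 39, ASNS measured 14.6, 16.2, 14.4 and 16.2 CPM with DMSO and 20.7, 15.2, 17.2 and 15.7 CPM with dTAG-13. The clones overlapped, with Clone 39 starting at 14.4 CPM and Clone 28 reaching 15.2. ASNS was higher in Clone 39 than in Clone 28 by 0.44 (SE 0.09) and than in Clone 35 by 0.22 (SE 0.08), with adjusted p-values of 0.000873 and 0.0688 (edgeR quasi-likelihood, Benjamini-Hochberg), and the overlapping ENSG00000284707 also differed between clones with a range of 0.22. TRIB3 went the other way, lower in Clone 39 than in Clone 28 by a log2 difference of -0.24 (SE 0.05), and DDIT3 was lower in Clone 35, by -0.25 (SE 0.07) from Clone 28, with adjusted p-values of 0.00237 and 0.0476 (edgeR quasi-likelihood, Benjamini-Hochberg). The DDIT3 means were 37.3 ± 4.44, 31.8 ± 2.39 and 38.0 ± 3.87 CPM (SD, n = 8) in Clones 28, 35 and 39. ENSG00000285133 on the same strand also differed between clones, with a range of 0.44, but its difference of Clone 35 from Clone 28 was -0.16 and not called. On the strand opposite DDIT3, MARS1 (-0.34) and MBD6 (-0.31) were called lower in Clone 35 than in Clone 28.

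**Figure D5:**
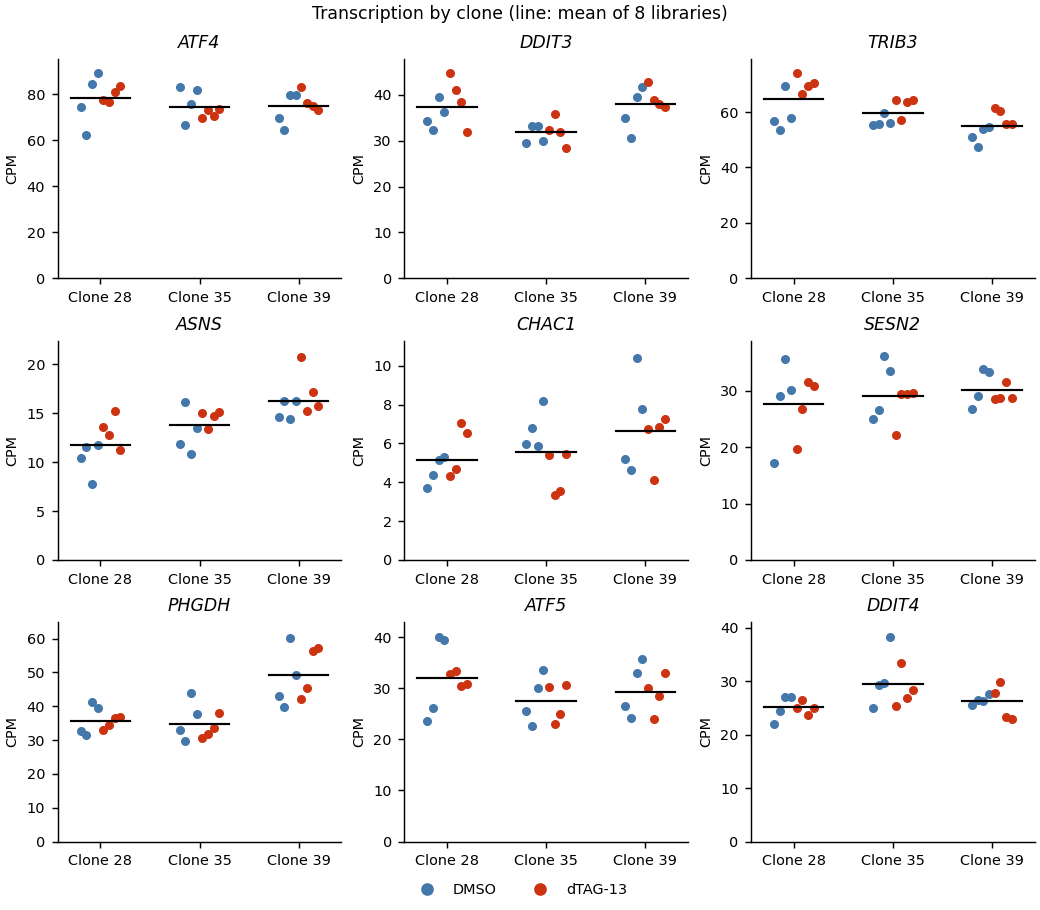
CPM of 9 genes in each library by clone, with DMSO in blue, dTAG-13 in red and a line at the mean of 8 libraries; the vertical axes start at 0. Mean PHGDH is 49.2 CPM in Clone 39, against 35.7 in Clone 28 and 34.8 in Clone 35.

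Over the 3 clones, 4 of 9 members were called (DDIT3, TRIB3, ASNS and PHGDH), against 36.1% of all genes (8050 of 22326). With the collection number as a term, 7 of 9 were called, against 53.8% (12015 genes), as ATF4, ATF5 and DDIT4 joined with ranges of 0.10, 0.24 and 0.22 (edgeR quasi-likelihood tests, Benjamini-Hochberg adjusted p = 0.0870, 0.00707 and 0.0123). In the 12 DMSO libraries alone 2 of 9 members were called, beside 5687 of 22326 genes, and DDIT3 and TRIB3 were not, with ranges of 0.22 and 0.20 against 0.26 and 0.24 in the 12 sums (adjusted p = 0.237 and 0.216, edgeR quasi-likelihood tests, Benjamini-Hochberg). DDIT4 was also called without Clone 35 replicate 1, with a range of 0.30 and an edgeR, Benjamini-Hochberg adjusted p of 0.0228. PSAT1, tested only when low counts were kept in the table, had a range of 1.23 between clones (edgeR quasi-likelihood test, Benjamini-Hochberg adjusted p = 0.0218), with 0.215 to 1.26 CPM in Clone 28, 0 to 1.12 in Clone 35 and 0.545 to 2.19 in Clone 39, at no more than 11 reads. In the related lists the clone test called 9 of 17 for the eIF2 machinery, 3 of 9 bZIP partners, 8 of 10 transporters, 6 of 12 for amino acid and one-carbon metabolism, 9 of 13 and 3 of 8 synthetases, 7 of 12 other ATF4 targets, 5 of 20 in the IRE1 and ATF6 arms, 3 of 10 NRF2 targets, 5 of 10 p53 targets and 4 of 5 glucocorticoid targets. With 1 isolate per clone these are differences between isolates.

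Members were correlated over the 24 libraries after the mean of each clone was taken out, and other pairs of genes were not drawn for reference. Pearson's r of log2 CPM over the 36 pairs of members had a median of 0.25, with 30 pairs above 0, from -0.42 between ASNS and PHGDH to 0.66 between PHGDH and ATF5. ATF4 was nearest to ATF5 (0.62) and PHGDH (0.51), DDIT3 to TRIB3 (0.54), and SESN2 to PHGDH (0.59). All these correlations share the collection numbers.

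Across 17171 genes with a mean of at least 5 CPM, the genes most like each member by the same measure (n = 24) were named after the values were seen. They were C2orf74-DT (0.80), ENSG00000225146 (0.78) and PQBP1 (0.78) for ATF4, NHS (0.74), ENSG00000285133 (0.73) and ADCK1 (0.72) for DDIT3, and HSPA2 (0.88), LINC02669 (0.85) and NFKBIA (0.84) for ATF5. For TRIB3 they were LINC02385 (0.82), PLK2 (0.82) and ZNF616 (0.81), for CHAC1 RNU5F-1 (0.81), MCRIP2 (0.79) and SS18L1 (0.78), and for SESN2 H2AC21 (0.88), ENSG00000230074 (0.86) and NT5C1B-RDH14 (0.86). For PHGDH they were TMEM223 (0.90), RMI2 (0.90) and ZFYVE21 (0.87), for ASNS BOK-AS1 (0.75), ENSG00000283667 (0.72) and MFSD4B (0.69), and for DDIT4 PSME2 (0.76), DLG1-AS1 (0.75) and ENSG00000279259 (0.74). ENSG00000285133 overlaps DDIT3 on the same strand, so the likeness of that pair cannot be told apart from shared transcription.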

How the data were processed

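The values used were the counts per gene and library deposited by the authors. Per the submitters' processing notes, reads were trimmed with cutadapt 1.8.1, aligned with Bowtie2 2.4.4 and handled with SAMtools 1.9. Genes were taken by symbol after matching Ensembl identifiers to GENCODE release 44 names, and members and lists were chosen with earlier results of these data known, including the difference between replicates 1 and 2 and replicates 3 and 4. Low counts were filtered (22326 genes kept of 60605), libraries were scaled by TMM, and genes were tested with edgeR 4.0.16 quasi-likelihood fits in R 4.3.3, with Benjamini-Hochberg adjustment over all tested genes and a threshold of 0.1. Pairing came from the methods and labels, and deviations of paired libraries from their group means had a mean correlation of 0.185 over 12 pairs. Reads of genes inside a host separated by strand. Alternatives were DESeq2 1.42.0, RLE scaling, a threshold of 0.05, no filter, pair terms, each treatment alone, separate libraries, clones left aside and single libraries or pairs left out. Named list genes are among the called genes of each list with the smallest p-values, at most 4.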

Additional observations from a re-analysis of the deposited data

Results flagged for a closer look

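Within groups of 4 libraries, 1 library stood apart from the other 3 in 5 of 54 groups examined. Values drawn by chance alone would be marked in about 5 percent of groups, or 1 in 20. The measure is the gap to the nearest library divided by the range of the group.

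TRIB3 in Clone 35 with DMSO was highest in replicate 3, at 59.6 CPM against 55.5 to 56.1 (0.851). With dTAG-13 in the same clone TRIB3 was lowest in replicate 2, at 57.1 against 63.7 to 64.4 CPM (0.910). CHAC1 in Clone 39 with dTAG-13 was lowest in replicate 2, at 4.12 against 6.73 to 7.28 CPM (0.858). SESN2 in Clone 35 with dTAG-13 was lowest in replicate 1, at 22.1 against 29.5 to 29.7 CPM (0.978), and in Clone 39 with dTAG-13 it was highest in replicate 3, at 31.5 against 28.6 to 28.8 CPM (0.931).

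The effect of dTAG-13 was called as different between replicate numbers for ATF4 (adjusted p = 0.0772) and ATF5 (adjusted p = 0.0320) by the edgeR quasi-likelihood test with Benjamini-Hochberg adjustment over all 22326 tested genes. The ATF4 call was lost at a threshold of 0.05, with no filter on low counts, without pair terms and without any of 7 single pairs. The ATF5 call was lost without Clone 28 replicate 1 or Clone 28 replicate 3. The ATF4 effects were 0.016, 0.22, -0.09 and -0.13, and the ATF5 effects 0.30, 0.14, -0.30 and -0.20, in replicates 1 to 4.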

How the results depend on the processing

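Treatment called 64 genes at a threshold of 0.05, 197 with no filter on low counts and 521 with a replicate block for the 12 pairs, where TRIB3 was still the 1 member called. Leaving Clone 28, 35 or 39 aside gave 1, 37 and 37 genes and 0, 0 and 0 members. Without Clone 35 the signs of ATF4 (0.049), CHAC1 (0.070) and PHGDH (0.014) reversed. Without 1 library the count ran from 66 to 149 genes with 1 member each time, ATF4 from -0.033 to 0.019 and PHGDH from -0.059 to 0.010. Treatment by clone called 6 genes with no filter and 1 with the replicate block, and 0 genes and 0 members without any library.

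Over the 4 replicate numbers, the dTAG-13 libraries alone gave 4332 genes and 3 members, and DESeq2 3350 and 3. Without 1 pair the ranges were 6999 to 8221 genes and 3 to 5 members. For replicates 3 and 4 against 1 and 2, the DMSO libraries alone gave 8 members with DDIT3 reversed (0.16). The dTAG-13 libraries alone gave 5112 genes and 3 members with TRIB3 (-0.0079) and DDIT4 (-0.14) reversed. DDIT3 also reversed with no filter (0.0063), without Clone 28 (0.0020) and without Clone 35 (0.013), and DDIT4 without Clone 35 (-0.033). Among replicates 3 and 4 against 1 and 2, genes called were 6441 of 21847, with 3 members, leaving Clone 28 aside, and DESeq2 gave 4776 genes and 3 members. Without 1 pair there were 7790 to 8619 genes and 5 members, with DDIT3 from -0.064 to 0.024 and DDIT4 from -0.018 to 0.072.

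Treatment by replicate number called 297 genes and 1 member at 0.05, 620 of 53337 genes and 1 member with no filter, and 365 genes and 1 member with no replicate block. Without 1 pair this test called 272 to 516 genes and 0 to 2 members. The single contrast chosen after seeing the data called 1135 genes and 4 members, and pairs were not left out of it. The clone test called 7 members with the replicate block and 2 in the DMSO libraries alone, and without 1 pair 7163 to 7969 genes and 4 to 5 members. With RLE scaling no member call changed, and the genes called were 121 for treatment, 8218 for replicate number, 8948 for replicates 3 and 4 against 1 and 2, 463 for treatment by replicate number and 8042 for clone. The cause of these shifts was not tested.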
